A study of Mus musculus with 6 samples.

Results

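The genes described here drive cells through mitosis: G2/M cyclins and their kinase, mitotic kinases, the spindle checkpoint, kinetochore proteins, kinesins and cytokinesis factors. They were taken by name from a fixed list of 40, and 39 of the 40 had a probe set with 1 gene symbol, among 19937 genes measured in this way. The cyclin B1 gene Ccnb1 had none and is not analysed here. The list gives names only, but it was drawn up with earlier results of these data known, and each gene is read from its brightest probe set.

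The arrays came from CD4+ T cells of B6 mouse spleen, purified as naive cells, stimulated with antibodies to CD3 and CD28 for 2 days, then rested overnight. The cells were then coated with antibody for 20 min, and the bound antibody was cross-linked for 8 h with goat antibody to hamster immunoglobulin. In 2 cultures the antibodies bound CD3 and ICOS (anti-CD3 plus anti-ICOS), and in 4 cultures they bound CD3 alone (anti-CD3). ICOS is a costimulatory receptor of the CD28 family. All 6 cultures thus share strain, first activation, CD3 ligation and cross-linking, and the RNA of each went onto a separate Affymetrix Mouse Gene 1.0 ST array. Arrays of 1 group are labelled biological replicates, with no animal named, so the p-values reflect only how far these 6 arrays scatter.

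A cell enters mitosis when cyclin-dependent kinase 1, bound to cyclin A or cyclin B, becomes active. Polo-like and Aurora kinases then build the spindle, kinetochores tie chromosomes to microtubules, and the spindle checkpoint holds back the anaphase-promoting complex until every chromosome is attached. Most of these genes are transcribed mainly in G2 and M phase, so their RNA is low in resting lymphocytes and high in dividing T cell blasts. Much of this timing is set at the promoter. A cell cycle genes homology region (CHR), bound by the MuvB complex together with B-Myb and FoxM1, acts there beside CCAAT boxes bound by NF-Y.

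Promoter sequence was at hand for 33 of the 40 genes, as 35 windows of 250 bases before to 50 bases after an annotated transcript start (RefSeq, GRCm38.p6). The genes without one were Aurkb, Ccna2, Cdc25c, Foxm1, Incenp, Kif20a and Tpx2. Shown first, because they hold both motifs in the 150 bases before the start, are Cdk1, Cdc20, Kif11 and Top2a. Bub1 and Mad2l1 follow, as the members with the largest and the smallest difference from anti-CD3 replicates 1 to 3. Only promoters whose start lay within 10 bases of the gene's annotated start were printed. Each stretch ends at the base before the transcript start, outside that transcript, and runs 5′ to 3′ on the gene's strand. Capitals mark the CHR letters (TTTGAA, or TTCAAA on the other strand) and the CCAAT letters (CCAAT or ATTGG).
Cdk1 (chr10:69352913-69353062, minus strand): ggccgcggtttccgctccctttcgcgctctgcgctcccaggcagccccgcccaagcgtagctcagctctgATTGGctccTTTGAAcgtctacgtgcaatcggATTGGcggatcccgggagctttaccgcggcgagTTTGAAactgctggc
Cdc20 (chr4:118437344-118437493, minus strand): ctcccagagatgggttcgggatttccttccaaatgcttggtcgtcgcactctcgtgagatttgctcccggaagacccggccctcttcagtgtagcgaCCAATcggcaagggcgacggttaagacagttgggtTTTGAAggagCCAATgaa
Kif11 (chr19:37376232-37376381, plus strand): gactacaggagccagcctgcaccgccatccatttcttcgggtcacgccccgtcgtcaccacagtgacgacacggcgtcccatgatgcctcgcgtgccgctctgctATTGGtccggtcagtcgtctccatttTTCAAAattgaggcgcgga
Top2a (chr11:99024190-99024339, minus strand): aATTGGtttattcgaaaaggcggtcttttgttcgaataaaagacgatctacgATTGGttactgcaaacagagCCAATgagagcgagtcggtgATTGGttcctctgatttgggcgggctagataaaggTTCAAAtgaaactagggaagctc
Bub1 (chr2:127831860-127832009, minus strand): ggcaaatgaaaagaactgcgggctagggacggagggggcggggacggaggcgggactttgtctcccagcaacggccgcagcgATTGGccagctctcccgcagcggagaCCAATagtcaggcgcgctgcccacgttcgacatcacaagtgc
Mad2l1 (chr6:66535071-66535220, plus strand): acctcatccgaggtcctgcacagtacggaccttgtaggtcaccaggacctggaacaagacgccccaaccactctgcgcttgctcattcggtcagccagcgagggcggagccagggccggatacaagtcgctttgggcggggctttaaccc

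In Cdk1 the CHR letters began at -71 and -15 from the transcript start, and in Cdc20 at -18. In Kif11 they began at -19 and in the stretch of Top2a at -23, both in the reverse orientation. Bub1 held 2 CCAAT matches and no CHR match in its window, and Mad2l1 neither. The CHR letters were present in 26 of the 35 member promoters (74.3%), against 17.9% of all 32851 promoters in the table and 14.9% of the 19176 promoters of the genes measured here. CCAAT letters were present in 27 of 35 (77.1%), against 37.4% of either set. Both motifs together were present in 23 of 35 (65.7%), against 6.95% of all and 5.85% of those of the genes measured. At least 2 CCAAT matches lay in 18 of 35 member promoters (51.4%), against 11.7% and 12.4%. For comparison, a GC box (GGGCGG or CCGCCC) was found in 82.9% of member promoters, against 35.7% of all and 49.2% of those of the genes measured. E2F letters (TTGGCGC or TTCCCGC, or either on the other strand) were found in 14.3%, against 6.81% and 9.28%. CCAAT and E2F letters can share bases, and a shared stretch was counted under each. Neither motif was found for 5 of the 33 genes, Nuf2, Nusap1, Melk, Mad2l1 and Birc5. These matches describe letters in a window and not sites shown to be bound.

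Of the 33 CHR matches in member promoters, 25 began between -30 and 49, close to the transcript start. The CCAAT matches lay further upstream, with 49 of 59 beginning in the 150 bases before the start. Ect2 and Prc1 have 2 overlapping windows each, so some of their matches were counted in both.

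**Figure D1:**
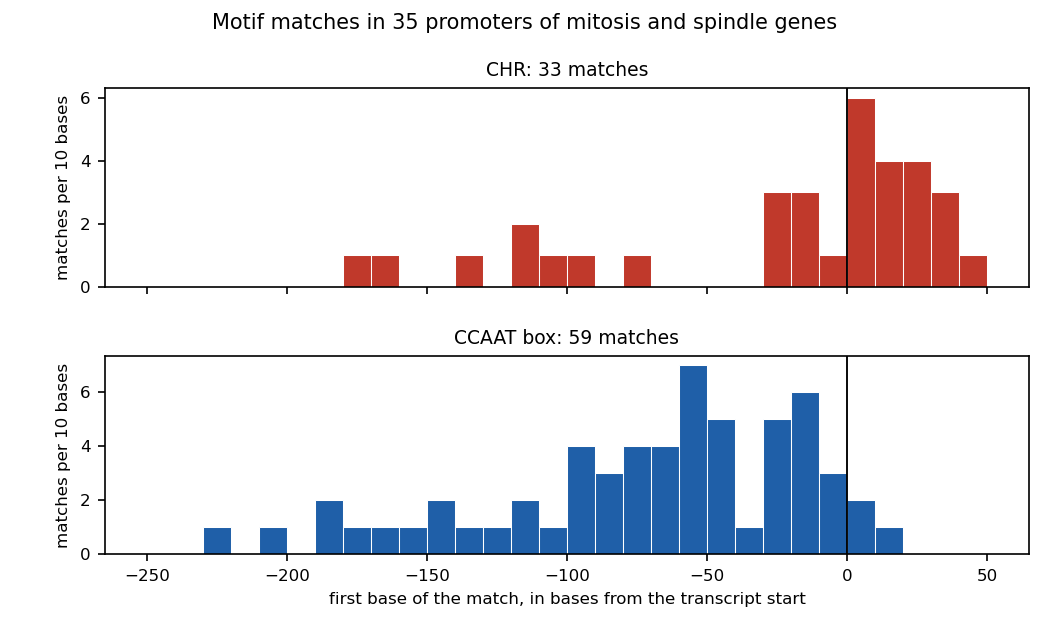
Histograms of where CHR (upper panel) and CCAAT (lower panel) letters begin in the 35 member promoters, in bases from the transcript start (vertical line at 0), with bars counting matches per 10 bases. Of 33 CHR matches 25 begin between -30 and 49, and of 59 CCAAT matches 49 begin in the 150 bases before the start.

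The question is what ligating ICOS beside CD3 adds at the RNA level. Mitosis and spindle genes read low on both anti-CD3 plus anti-ICOS arrays and high on anti-CD3 replicates 1 to 3, but anti-CD3 replicate 4 read nearly as low as the anti-CD3 plus anti-ICOS arrays. Levels are log2(intensity + 16), where the deposited intensity is linear and the added 16 makes differences of dim genes smaller. A negative difference means a lower level with anti-ICOS added. The mean level over the 39 members was 8.81 and 8.87 on the anti-CD3 plus anti-ICOS arrays, against 9.95, 9.98 and 9.79 on anti-CD3 replicates 1 to 3 and 8.90 on replicate 4. The groups therefore did not overlap for this mean, but replicate 4 stood at least 0.89 below every other anti-CD3 array and no more than 0.091 above either anti-CD3 plus anti-ICOS array. Across all 19937 genes, replicate 4 had a Pearson correlation of 0.996 with each anti-CD3 plus anti-ICOS array, while its correlations with the other anti-CD3 arrays were 0.986, 0.987 and 0.982, a description over genes that are not independent. Nothing in the labels sets replicate 4 apart, so each result is given with all 4 anti-CD3 arrays, without replicate 4 and against replicate 4 alone.

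With all 6 arrays, 0 of the 39 members passed the test (limma, two-sided, Benjamini-Hochberg adjusted p under 0.05 over all 19937 genes), with adjusted p between 0.408 and 0.423. The background was 0.0% of all genes called lower and 0.271% called higher. In bulk RNA, fewer cycling cells and less mitotic RNA per cell cannot be told apart. All 39 differences were negative, with a median of -0.83, beside -0.031 over all genes. At an unadjusted p under 0.05, 35 of the 39 were lower and 0 higher, against 5.56% and 6.24% of all genes. Both anti-CD3 plus anti-ICOS arrays lay below all 4 anti-CD3 arrays in 26 of the 39, against 14.7% of all genes. The other 13 overlapped only through replicate 4. In some of the 26, Cdk1 and Kif20a among them, the gap to replicate 4 was smaller than that between the anti-CD3 plus anti-ICOS arrays.

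Without anti-CD3 replicate 4, all 39 members fell, with adjusted p between 6.08e-05 and 0.00604. Over all genes 12.7% were called lower in this fit and 17.1% higher. The median difference was -1.10, a 2.14-fold lower level, against -0.041 over all genes, and single members fell between 1.65-fold and 3.09-fold. At least 2-fold falls that passed the test were seen in 26 of the 39, or 66.7% of the members, against 0.652% of all genes. These 26 made up 20% of the 130 genes that fell as far. Replicate 4 was left out because its values were known to stand apart, so these p-values describe replicates 1 to 3 and not the group as labelled. Weighting the 6 arrays by their scatter (limma array weights) called 39 members lower, against 24.4% of all genes called lower and 22.8% higher. The anti-CD3 weights were then 4.53, 1.07, 0.38 and 0.15 for replicates 1 to 4, so this fit leans mainly on replicate 1 and little on replicate 4.

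Against replicate 4 alone, 0 of 39 members passed, with 0.0% of all genes called lower and 0.176% higher. The median difference was -0.065, beside -0.013 over all genes, with 32 members negative and 7 positive. The 95% intervals of the single members reached 0.20 to 0.46 to either side of the difference, and the bounds over all members ran from -0.49 to 0.52. In this fit, anti-CD3 replicates 1 to 3 add only to the estimate of spread.

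**Figure D2:**
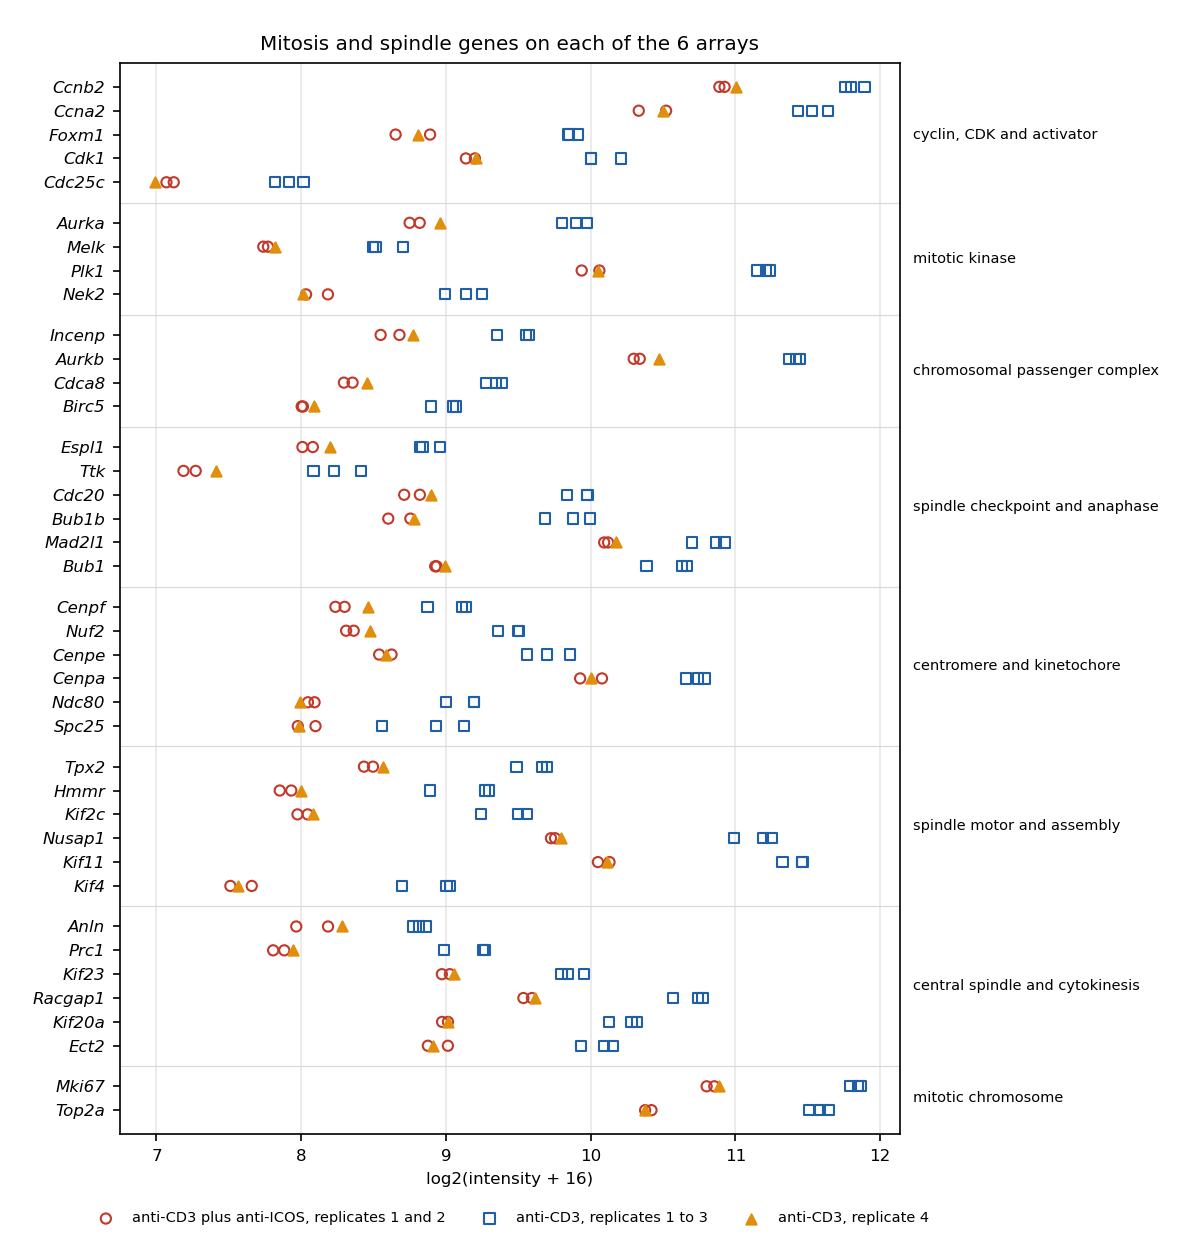
Level of each of the 39 members on each array, as log2(intensity + 16) on the horizontal axis, with genes in rows grouped by role. Circles are the 2 anti-CD3 plus anti-ICOS arrays, squares are anti-CD3 replicates 1 to 3 and the triangle is anti-CD3 replicate 4. In all 39 rows the circles and the triangle lie left of the 3 squares. Over all genes, both anti-CD3 plus anti-ICOS arrays lay below replicates 1 to 3 in 35.1%, and replicate 4 did in 42.5%.

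The cyclins, their kinase, Cdc25c and Foxm1 lay lower on both anti-CD3 plus anti-ICOS arrays than on anti-CD3 replicates 1 to 3. This held in 5 of the 5 measured, against 35.1% of all genes. Ccnb2, which encodes cyclin B2, read 10.93 and 10.89 with anti-CD3 plus anti-ICOS, against 11.80, 11.89, 11.76 and 11.00 on anti-CD3 replicates 1 to 4. Ccna2, the cyclin A2 gene needed in S and G2 phase, read 10.33 and 10.52, against 11.53, 11.64, 11.43 and 10.50. Replicate 4 was the lowest anti-CD3 array for both, and for Ccna2 it lay between the 2 anti-CD3 plus anti-ICOS arrays. Foxm1, the transcription factor that acts with MuvB at G2/M promoters, read 8.65 and 8.89, against 9.91, 9.84, 9.85 and 8.80. The differences with all arrays were -0.71 ± 0.24 for Ccnb2, -0.85 ± 0.31 for Ccna2 and -0.83 ± 0.31 for Foxm1 (SE; limma adjusted p = 0.414, 0.417 and 0.417). Without replicate 4 all 3 fell, and the differences were -0.91 ± 0.068, -1.11 ± 0.088 and -1.10 ± 0.083 (limma adjusted p = 0.000160, 0.000204 and 0.000172). Cdk1, the kinase these cyclins activate, and Cdc25c, the phosphatase that removes its inhibitory phosphates, fell without replicate 4, with differences of -0.90 and -0.82. For Cdc25c replicate 4, at 6.99, read below both anti-CD3 plus anti-ICOS arrays, at 7.12 and 7.07.

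Among the mitotic kinases, Aurka, the Aurora kinase of centrosomes and spindle poles, read 8.75 and 8.82 with anti-CD3 plus anti-ICOS, against 9.90, 9.97, 9.80 and 8.96 on anti-CD3 replicates 1 to 4. Plk1, the polo-like kinase that drives mitotic entry and centrosome maturation, read 9.94 and 10.06, against 11.24, 11.21, 11.15 and 10.05. Melk, a kinase of dividing cells, read 7.77 and 7.74, against 8.51, 8.70, 8.50 and 7.82. In Aurka and Melk the groups did not overlap, while in Plk1 replicate 4 lay inside the anti-CD3 plus anti-ICOS range. None of the 4 kinases passed with all arrays, where Aurka differed by -0.88 ± 0.27 and Plk1 by -0.91 ± 0.33 (limma adjusted p = 0.414 and 0.417). All 4 fell without replicate 4. Plk1 fell by 1.20 ± 0.069, Aurka fell by 1.11 ± 0.073, Nek2, a centrosome kinase, fell by 1.02 ± 0.091 and Melk fell by 0.82 ± 0.080.

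The chromosomal passenger complex holds Aurora B at centromeres, where it corrects faulty attachments, and then moves to the midzone. Its kinase gene Aurkb read 10.30 and 10.34 with anti-CD3 plus anti-ICOS, against 11.44, 11.42, 11.37 and 10.47 on anti-CD3 replicates 1 to 4. Incenp, the scaffold of the complex, read 8.55 and 8.68, against 9.55, 9.57, 9.35 and 8.77. Cdca8, which encodes borealin, read 8.29 and 8.35, against 9.35, 9.39, 9.28 and 8.45. In each of the 4 members, Birc5 (survivin) included, both anti-CD3 plus anti-ICOS arrays lay below replicate 4, as in 41.5% of all genes. The same held in 6 of 6 checkpoint and anaphase genes and 5 of 6 central spindle and cytokinesis genes. The median difference of the 4 from replicate 4 alone was -0.14. The differences with all arrays ran from -0.86 ± 0.27 for Aurkb to -0.70 ± 0.22 for Incenp (limma adjusted p = 0.414 for both). Without replicate 4, Aurkb fell by 1.09 ± 0.063, Cdca8 fell by 1.01 ± 0.066, Birc5 fell by 1.00 ± 0.074 and Incenp fell by 0.88 ± 0.087.

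The checkpoint and anaphase genes gave both the largest and the smallest fall. Bub1, a checkpoint kinase of the kinetochore, read 8.94 and 8.93 with anti-CD3 plus anti-ICOS, against 10.63, 10.66, 10.39 and 8.99 on anti-CD3 replicates 1 to 4. Its difference was -1.24 ± 0.45 with all arrays (limma adjusted p = 0.417), and it fell by 1.63 ± 0.092 without replicate 4 (limma adjusted p = 6.60e-05), ranking 15 from the lowest of all genes. Against replicate 4 alone the difference was -0.063, with a 95% interval from -0.35 to 0.22. Mad2l1, the checkpoint protein that captures Cdc20, had the smallest fall without replicate 4 and fell by 0.72 ± 0.081.

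Espl1, the separase that cuts cohesin at anaphase, read 8.01 and 8.08 with anti-CD3 plus anti-ICOS, against 8.96, 8.82, 8.84 and 8.20 on anti-CD3 replicates 1 to 4. Ttk, the Mps1 kinase that starts checkpoint signalling, read 7.19 and 7.27, against 8.22, 8.41, 8.08 and 7.41. Cdc20, the activator of the anaphase-promoting complex, read 8.71 and 8.82, against 9.98, 9.98, 9.84 and 8.90. The groups did not overlap for any of the 6 genes of this role, with both anti-CD3 plus anti-ICOS arrays below all 4 anti-CD3 arrays. That held in 14.7% of all genes. Replicate 4 was the lowest anti-CD3 array in each of the 6, against 42.5% of all genes. Without replicate 4, Cdc20 fell by 1.16 ± 0.075, Bub1b, which encodes the checkpoint protein BubR1, fell by 1.17 ± 0.10, Ttk fell by 1.01 ± 0.099 and Espl1 fell by 0.83 ± 0.070.

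Centromere and kinetochore genes had a median difference of -0.95 without replicate 4. Among the 8 roles only the cyclins, their kinase, Cdc25c and Foxm1 had a median nearer to 0, of -0.91. Cenpf, a large kinetochore protein of G2 and M phase, read 8.24 and 8.30 with anti-CD3 plus anti-ICOS, against 9.14, 9.11, 8.87 and 8.46 on anti-CD3 replicates 1 to 4. Nuf2, a subunit of the microtubule-binding Ndc80 complex, read 8.31 and 8.36, against 9.50, 9.50, 9.36 and 8.47. Cenpe, a kinesin that moves chromosomes to the spindle equator, read 8.54 and 8.62, against 9.86, 9.70, 9.56 and 8.59. Cenpf and Nuf2 separated the groups, and Cenpe did not, because of replicate 4. The differences with all arrays were -0.63 ± 0.19, -0.87 ± 0.29 and -0.84 ± 0.33 in that order (limma adjusted p = 0.414, 0.414 and 0.417). Without replicate 4, Cenpe fell by 1.12 ± 0.093, Nuf2 fell by 1.12 ± 0.071 and Ndc80 itself fell by 1.06 ± 0.079. Spc25, another subunit of that complex, fell by 0.83 ± 0.15, Cenpf fell by 0.77 ± 0.092 and Cenpa, the histone H3 variant of centromeres, fell by 0.73 ± 0.075. For Ndc80 replicate 4 read 7.99, below both anti-CD3 plus anti-ICOS arrays at 8.05 and 8.09.

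Spindle motors and assembly factors had the largest median fall of the 8 roles without replicate 4, of -1.33, and all 6 fell at least 2-fold. Tpx2, which activates Aurora A on spindle microtubules, read 8.50 and 8.43 with anti-CD3 plus anti-ICOS, against 9.66, 9.70, 9.49 and 8.56 on anti-CD3 replicates 1 to 4. Hmmr, a microtubule-associated receptor for hyaluronan, read 7.85 and 7.93, against 9.27, 9.30, 8.89 and 8.00. Kif2c, the kinesin that takes microtubules apart at centromeres, read 8.04 and 7.97, against 9.50, 9.56, 9.24 and 8.08. The groups did not overlap for these 3, although replicate 4 stood much nearer to the anti-CD3 plus anti-ICOS arrays. With all arrays they differed by -0.89 ± 0.31, -0.97 ± 0.35 and -1.09 ± 0.39 (limma adjusted p = 0.416, 0.417 and 0.417). Without replicate 4, Kif2c fell by 1.42 ± 0.099, Nusap1, which bundles spindle microtubules, fell by 1.40 ± 0.086 and Kif11, the motor that pushes spindle poles apart, fell by 1.33 ± 0.072. Kif4, a chromosome-bound kinesin, fell by 1.33 ± 0.11, Hmmr fell by 1.26 ± 0.12 and Tpx2 fell by 1.15 ± 0.081. Kif11 had the smallest adjusted p of all members in that fit, 6.08e-05.

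Among central spindle and cytokinesis genes, Anln, which encodes the actin-binding ring protein anillin, read 7.97 and 8.19 with anti-CD3 plus anti-ICOS, against 8.81, 8.86, 8.77 and 8.28 on anti-CD3 replicates 1 to 4. Prc1, which crosslinks the microtubules of the midzone, read 7.88 and 7.81, against 9.26, 9.27, 8.99 and 7.94. Kif23, the motor of the centralspindlin complex, read 9.03 and 8.97, against 9.84, 9.95, 9.80 and 9.05. The groups did not overlap for these 3. In each, however, the gap between the higher anti-CD3 plus anti-ICOS array and replicate 4 was within the spread of the anti-CD3 plus anti-ICOS arrays. With all arrays the differences were -0.61 ± 0.17, -1.02 ± 0.36 and -0.66 ± 0.24 (limma adjusted p = 0.408, 0.417 and 0.417). Without replicate 4, Prc1 fell by 1.33 ± 0.097, Kif20a, a kinesin that carries the passenger complex to the midzone, fell by 1.25 ± 0.077 and Racgap1, the partner of Kif23 in centralspindlin, fell by 1.13 ± 0.080. Ect2, an exchange factor needed for the cleavage furrow, fell by 1.12 ± 0.086, Kif23 fell by 0.87 ± 0.071 and Anln fell by 0.74 ± 0.081. Anln had the largest difference from replicate 4 alone, -0.21, with a 95% interval from -0.46 to 0.044.

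Both mitotic chromosome genes were lower on both anti-CD3 plus anti-ICOS arrays than on anti-CD3 replicates 1 to 3, as were 35.1% of all genes. Mki67, which encodes the proliferation antigen Ki-67 on the chromosome surface, read 10.85 and 10.80 with anti-CD3 plus anti-ICOS, against 11.85, 11.79, 11.87 and 10.88 on anti-CD3 replicates 1 to 4. Top2a, the topoisomerase that untangles sister chromatids, read 10.38 and 10.42, against 11.58, 11.64, 11.51 and 10.37. For Mki67 the groups did not overlap, but the gap to replicate 4 was within the spread of the anti-CD3 plus anti-ICOS arrays. For Top2a replicate 4 was the lowest of the 6 arrays. Mki67 differed by -0.77 ± 0.28 and Top2a by -0.88 ± 0.35 with all arrays (limma adjusted p = 0.417 and 0.420). Without replicate 4 both fell, with differences of -1.01 ± 0.063 and -1.18 ± 0.068. A second, dim probe set assigned to Top2a read between 4.99 and 5.15 on the 6 arrays and differed by -0.031 without replicate 4, where the bright one differed by -1.18.

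**Figure D3:**
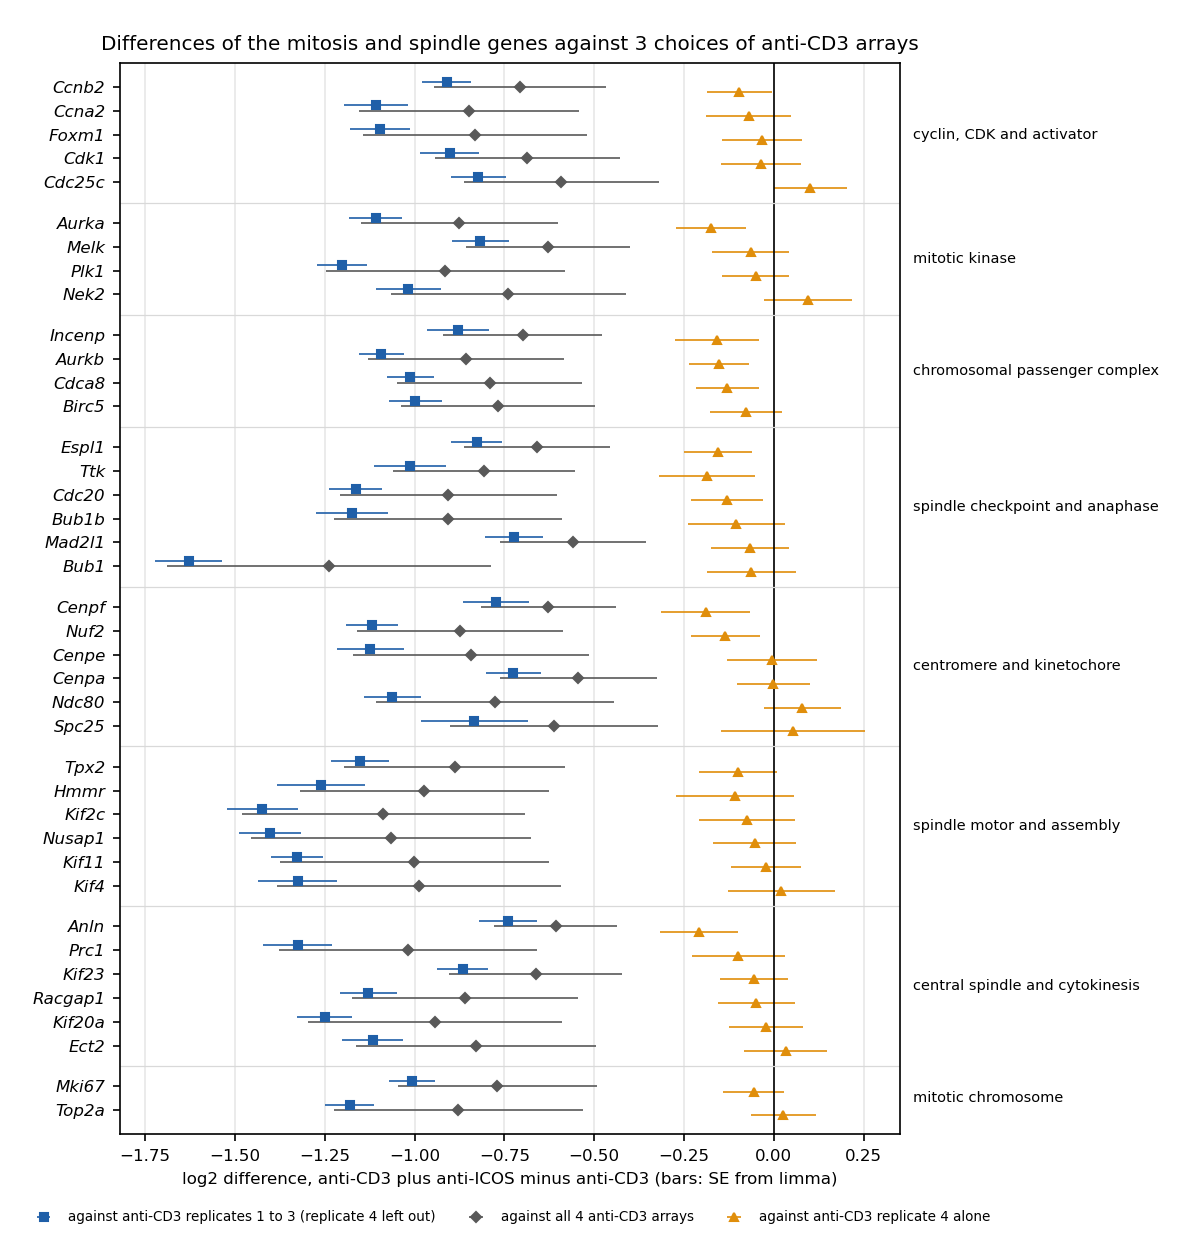
Log2 difference of each member (horizontal axis, negative means lower with anti-ICOS added, bars are SE from limma), genes in rows by role. Squares leave out anti-CD3 replicate 4 (median -1.10), diamonds use all 4 anti-CD3 arrays (median -0.83) and triangles use replicate 4 as the only reference (median -0.065).

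Across arrays the members shared 1 pattern. The SD over the 4 anti-CD3 arrays lay between 0.27 and 0.79, and over replicates 1 to 3 alone between 0.037 and 0.29. Replicate 4 read below replicates 1 to 3 in 39 of 39 members, against 42.5% of all genes, with a median of -1.03 relative to their mean. In 17 members replicate 4 lay past Dixon's outlier limit on the low side, against 2.25% of all genes. Any anti-CD3 array lay past it in 8.69% of all genes. Replicate 4 was known to stand apart, so this describes the array and does not test it. Replicate 4 lay between the 2 anti-CD3 plus anti-ICOS arrays in 9 members, below both in 4 and above both in 26, against 27.7%, 30.8% and 41.5% of all genes. Of the 2 anti-CD3 plus anti-ICOS arrays, replicate 1 was the lower in 28 members (55.5% of all genes) and replicate 2 in 11, and the mean over the members differed between them by 0.053. Among anti-CD3 replicates 1 to 3, the mean over the members was lowest on replicate 3, at -0.11 relative to the mean of the 3.

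Other cell cycle genes on lists of known function were counted in the same way. Of 50 other mitotic genes, 0 passed with all arrays and 45 fell without replicate 4 (12.7% of all genes), with a median of -0.88. Cenph, of the inner kinetochore, fell by 1.11 ± 0.096. Of 37 DNA replication and G1/S genes, 36 fell, with a median of -0.74. The helicase subunit gene Mcm4 fell by 0.62 ± 0.065 and E2f1 fell by 0.68 ± 0.10. At least 2-fold falls passed the test in 20 of the 50 mitotic and 10 of the 37 replication genes, beside 26 of the 39 members. The share of all genes was 0.652%. Among the lists that follow, 4 of 17 condensin and cohesin genes and 1 of 14 MuvB, B-Myb and E2F genes fell as far. The anaphase-promoting complex and CDK inhibitor lists held 0.

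The remaining lists had medians nearer to 0, and their counts stand against 12.7% of all genes called lower and 17.1% higher in the fit without replicate 4. Of 17 condensin and cohesin genes 9 fell and 1 rose without replicate 4, with the condensin genes Ncapg2 and Ncapg at -1.23 ± 0.091 and -1.22 ± 0.10. Of 14 subunits and regulators of the anaphase-promoting complex 4 fell and 0 rose, with Fbxo5, an inhibitor of the complex, at -0.93 ± 0.062, while Anapc11, a catalytic subunit, differed by -0.22 (limma adjusted p = 0.0569). Of 14 MuvB, B-Myb and E2F genes 4 fell and 1 rose, with the atypical repressor genes E2f8 and E2f7 at -1.35 ± 0.085 and -0.86 ± 0.063. Of 14 CDK inhibitors, G1 cyclins and G1 kinases 1 fell and 3 rose, shares near those of all genes, with Cdk6 at 0.47 ± 0.087 and Ccnd1 at 0.32 ± 0.072. None of these 4 lists had a gene past the threshold with all 6 arrays, and against replicate 4 alone the 6 list medians lay between -0.079 and 0.013. For Ccnd1 replicate 4 at 6.76 read away from the anti-CD3 plus anti-ICOS arrays at 7.28 and 7.35, with replicates 1 to 3 at 7.08, 6.92 and 6.99.

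**Figure D4:**
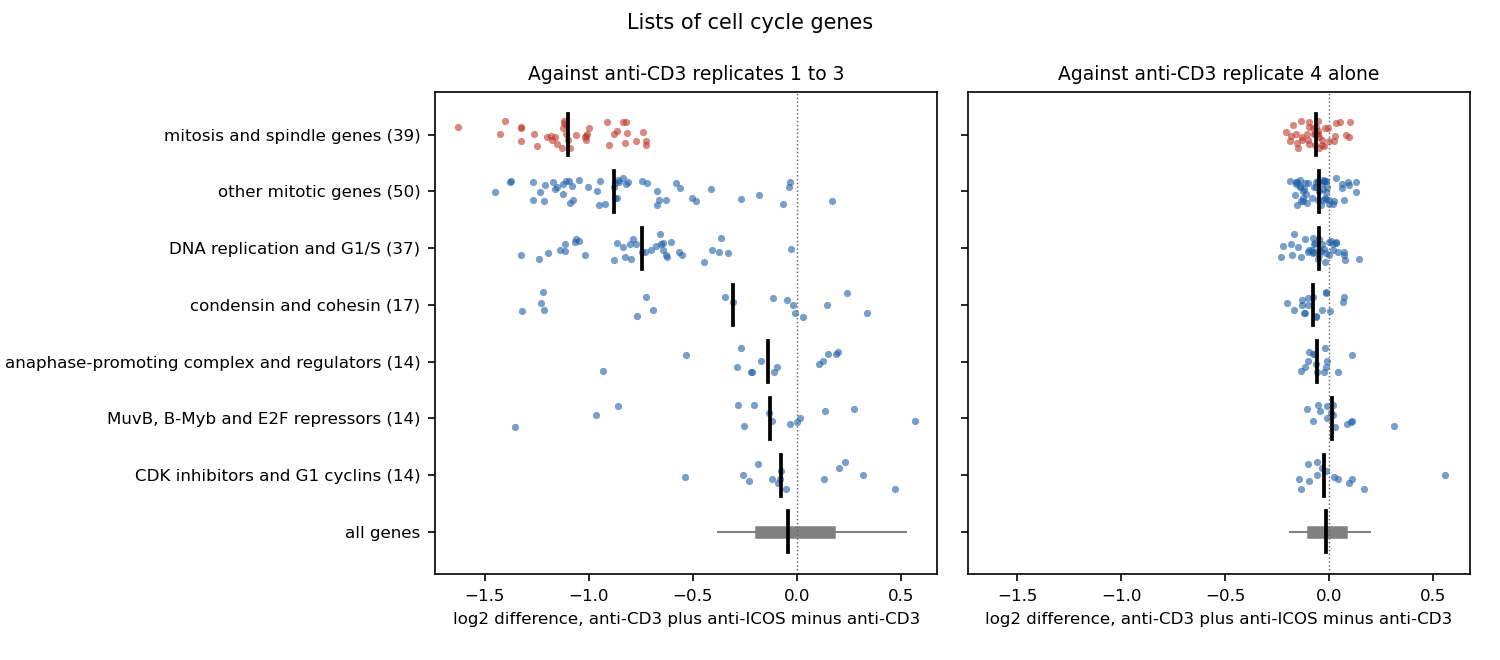
Log2 differences (negative means lower with anti-ICOS added) of the members and of 6 other lists, without anti-CD3 replicate 4 (left) and against replicate 4 alone (right); points are genes, black lines medians, and the grey bars span the middle 50% (thick) and 90% (thin) of all genes. The members have the lowest median in the left panel, -1.10 against -0.041 for all genes, and -0.065 in the right panel.

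Markers of T cells were bright on every array, and so were markers of B cells, although the labels name CD4+ T cells only. In bulk RNA the cell type that gave the mitotic RNA cannot be told, and it was not tested. The 9 measured T cell markers read between 8.76 and 12.43 with anti-CD3 plus anti-ICOS, against 7.42 to 12.80 on anti-CD3 replicates 1 to 3 and 8.52 to 12.45 on replicate 4. The 7 B cell markers read between 9.90 and 12.70, against 9.31 to 12.52, and between 10.16 and 12.66 on replicate 4. The log2 of the summed B cell marker intensity was 14.28 and 14.42 with anti-CD3 plus anti-ICOS, against 14.12 to 14.27 on replicates 1 to 3 and 14.41 on replicate 4. Monocyte and macrophage markers summed to 10.10 and 10.76, against 9.31 to 9.34 and 10.08 on replicate 4, and NK cell markers to 11.92 and 11.90, against 11.50 to 11.63 and 11.97. The T cell sum ran the other way, at 14.80 and 14.84, against 14.94 to 15.04 and 14.88 on replicate 4. Without replicate 4, 4 of 7 B cell, 6 of 8 NK cell and 4 of 6 monocyte markers rose, and of the 9 T cell markers 4 fell and Trat1 rose; no marker was listed at 0. In the same comparison 4 of 8 dendritic cell, 4 of 8 mast cell and 3 of 8 neutrophil markers rose, and 2 of 5 erythroid markers fell. Over all genes 17.1% were called higher and 12.7% lower in that fit, and each marker list is short. Summed levels of dendritic cell markers were 12.75 and 12.82, against 12.57 to 12.66 and 12.57 on replicate 4, and of mast cell markers 9.23 and 9.65, against 8.70 to 8.85 and 8.67. Linear intensities were summed, so 1 bright gene can make up most of a sum, as H2-Ab1 did for dendritic cells and Klrd1 for NK cells. H2-Ab1 differed by 0.093 without replicate 4 (limma adjusted p = 0.326). Neutrophil markers summed to 9.23 and 10.47, against 8.92 to 9.15 and 8.81, and erythroid markers to 9.54 and 9.71, against 9.97 to 10.06 and 9.54. Most of the erythroid sum was Tfrc, at 8.76 and 8.93, against 9.28 to 9.49 and 8.85 on replicate 4. Tfrc and Slc4a1 were the erythroid markers that fell, while Klf1, Epor and Alas2 did not pass. With all 6 arrays 1 marker, Flt3 of dendritic cells, passed the test, as higher. These shifts accompany the fall of the mitotic genes, and their part in it was not tested.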

How the data were processed

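Biotin-labelled cRNA made from 1 ug of total RNA was hybridised to 1 array per culture, per the labels' protocols. The intensities deposited by the authors are linear values per probe set, between 7.23 and 22176, and their array medians, between 109 and 114, lie close together. The submitters' processing notes name 1 tool, MAS5. How probes were summarised, corrected for background or scaled between arrays is not stated, so a shift of most genes in 1 direction could be hidden. GEO's platform annotation gave 1 symbol to 21640 of 34760 probe sets, several to 1321 and none to 11799. The brightest probe set stood for each of 954 genes with several, which left 19937 genes, unfiltered. All 39 members lay at or above percentile 54.2 of brightness, and 1 had 2 probe sets.

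Groups and replicate numbers came from the sample titles. Log2(intensity + 16) was tested with limma 3.58.1 (R 4.3.3, lmFit and eBayes) over all genes. SE and adjusted p in the text come from limma. The step was tested on simulated data whose spread left out anti-CD3 replicate 4. That check therefore does not cover the spread that replicate 4 adds to the fit with all 6 arrays. Values of every array are given for the 3 members of smallest p in each role, and the 2 genes of smallest p are named from each of the 6 other cell cycle lists, except 1 that is not reported here. Marker lists are given as counts and summed levels, and the markers named from them were chosen after their values were seen. Members and lists were chosen with earlier results of these data known. Alternatives were array weights, offsets of 1 and 64, averaged or separate probe sets, quantile normalization, centring on the median, leaving out 40% of genes as dimmest, a robust trended prior, a replicate block, each array left out, and replicate 4 as the only reference. Promoters came from RefSeq (GRCm38.p6). Plots used matplotlib 3.10.9.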

Additional observations from a re-analysis of the deposited data

Results flagged for a closer look

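In 17 of the 39 members, 1 array of the 4 anti-CD3 arrays lay far from the others, and in all 17 that array was replicate 4, on the low side. Each value is Dixon's ratio, the distance of that array from its neighbour divided by the whole range, and all lie above the 95% critical value for 4 samples. The values were Foxm1 (0.9357), Plk1 (0.9259), Aurkb (0.9245), Mki67 (0.9222), Kif11 (0.8969), Top2a (0.8943), Cdca8 (0.8845), Cdc20 (0.8693), Nuf2 (0.8614), Ccnb2 (0.8527), Kif20a (0.8506), Anln (0.8435), Ndc80 (0.8399), Cenpa (0.8342), Bub1 (0.8336), Aurka (0.8313) and Kif23 (0.8292). Chance sets an array apart in about 1 of 20 single groups. Replicate 4 was known to stand apart and the members share 1 pattern, so these ratios describe the arrays and are not 17 separate tests. Over all 19937 genes 8.69% had an anti-CD3 array past the limit, and 2.25% had replicate 4 as the low one. The lowest value among the members, in Spc25, was 0.504, where replicate 3 also read below replicates 1 and 2.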

How the results depend on the processing

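The direction of all 39 members was kept in every alternative except when replicate 4 alone stood for anti-CD3, where 7 turned positive: Cdc25c (0.10), Nek2 (0.094), Ndc80 (0.079), Spc25 (0.053), Ect2 (0.033), Top2a (0.026) and Kif4 (0.021). In that setting the median over the members was -0.065, against -0.83 with all arrays, since the reference is then the array nearest to the anti-CD3 plus anti-ICOS arrays. The count of members called lower was 0 with all arrays and 39 with array weights, which gave replicate 4 a weight of 0.15, and leaving out 1 array at a time gave 0 to 39, with 39 only without replicate 4. The median over the members then ranged from -1.10 to -0.73. No member was called higher in any alternative run. Replicates 1 and 2 share a number across groups, and a replicate block called 39 members lower (15.9% of all genes lower, 17.0% higher). In that fit anti-CD3 replicates 3 and 4 have no partner and add nothing to the difference. Deviations of same-numbered arrays from their group means correlated at -0.039 and 0.10. The anti-CD3 plus anti-ICOS deviations mirror each other, and the anti-CD3 mean includes replicate 4, so this cannot show whether the arrays are paired. The 2 anti-CD3 plus anti-ICOS arrays limit the precision of every difference.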
